A study of Mus musculus with 6 samples.

Results

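A set of 8 genes of the retinoic acid pathway were followed in NMuMG cells, and each was present among the 18512 genes of the deposited count table. They are the retinoic acid receptors Rara, Rarb and Rarg, the retinoid X receptors Rxra and Rxrb, the retinoic acid binding protein Crabp2, the retinol uptake receptor Stra6 and the retinaldehyde reductase Dhrs3. They were chosen by name, with earlier results of these data known. Crabp2 was picked out because its counts rose when 2APB was added, so its values with 2APB are a description and were not tested. NMuMG is an established mouse mammary epithelial line that loses epithelial features under TGF-β, a change called epithelial-mesenchymal transition (EMT). The cells received the vehicle DMSO, TGF-β (5 ng/ml), or the same TGF-β dose together with 2APB (50 uM), and 2 libraries were sequenced per group. 2APB is used as an inhibitor of store-operated calcium entry, and the study proposes that it also increases calcium entry through the channel ORAI3. No group received 2APB without TGF-β. All groups share 1 cell line. The methods of the study describe the libraries of a group as biological replicates, while the labels say only that the profiling was duplicated, and neither says how the cultures were separated.

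Retinol circulates bound to RBP4 and enters cells through STRA6. Alcohol and retinol dehydrogenases oxidize it to retinaldehyde, retinaldehyde dehydrogenases of the ALDH1A family make retinoic acid, and DHRS3 works in the opposite direction by reducing retinaldehyde back to retinol. CRABP2 carries retinoic acid to the nuclear receptors RARα, RARβ and RARγ, which bind DNA as dimers with an RXR, and CYP26 enzymes break retinoic acid down. Retinoic acid signaling is best known for its roles in differentiation and in the patterning of the embryo.

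Total counts per library ran from 71840570 to 79473182. Every count was even and the smallest count above 0 was 2, so that 1 read may stand as 2 in the table. Of 9 epithelial markers in the table, Krt8, Krt18, Krt19, Cdh1 and Ocln were abundant in DMSO, with 5198 (Ocln) to 257088 (Krt8) counts, and Epcam had 130 and 158. Cldn4, Cldn7 and Esrp1 had 0 to 6 counts there. With TGF-β, 7 of 7 tested epithelial markers were called, 3 higher (Krt8, Krt18 and Cldn4) and 4 lower (Cdh1, Epcam, Krt19 and Ocln), and 9 of 9 mesenchymal markers were higher. Of all tested genes, 41.5% were called with TGF-β, 21.8% higher and 19.7% lower. Markers of leukocytes stood apart in 1 library. Their summed level was 411 CPM (counts scaled to library size) in TGF-β+2APB replicate 2, against 5.03 in replicate 1 of that group and 4.18 to 54.8 in the 4 other libraries. Lyz2, a myeloid marker, had 29060 counts in that library and 158 in its partner. The 5 endothelial markers summed to at most 0.671 CPM in any library. The calls of Stra6, Dhrs3, Rara and Rxra are given with and without that library.

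Addition of 2APB to TGF-β was accompanied by higher Stra6, lower Dhrs3 and, in the observation that picked it out, higher Crabp2. None of the 4 receptor genes tested passed the threshold when 2APB was added. TGF-β alone raised Rara to 1.27 and Rarg to 1.32 times the DMSO mean, and no other member passed the threshold. The threshold was a false discovery rate (FDR, Benjamini-Hochberg) of 0.05 in edgeR's quasi-likelihood test, applied to the 13353 genes whose normalized counts averaged 20 or more. Of the members 7 passed this filter, Crabp2 among them, and Rarb fell just short with a mean of 19.99 normalized counts.

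**Figure D1:**
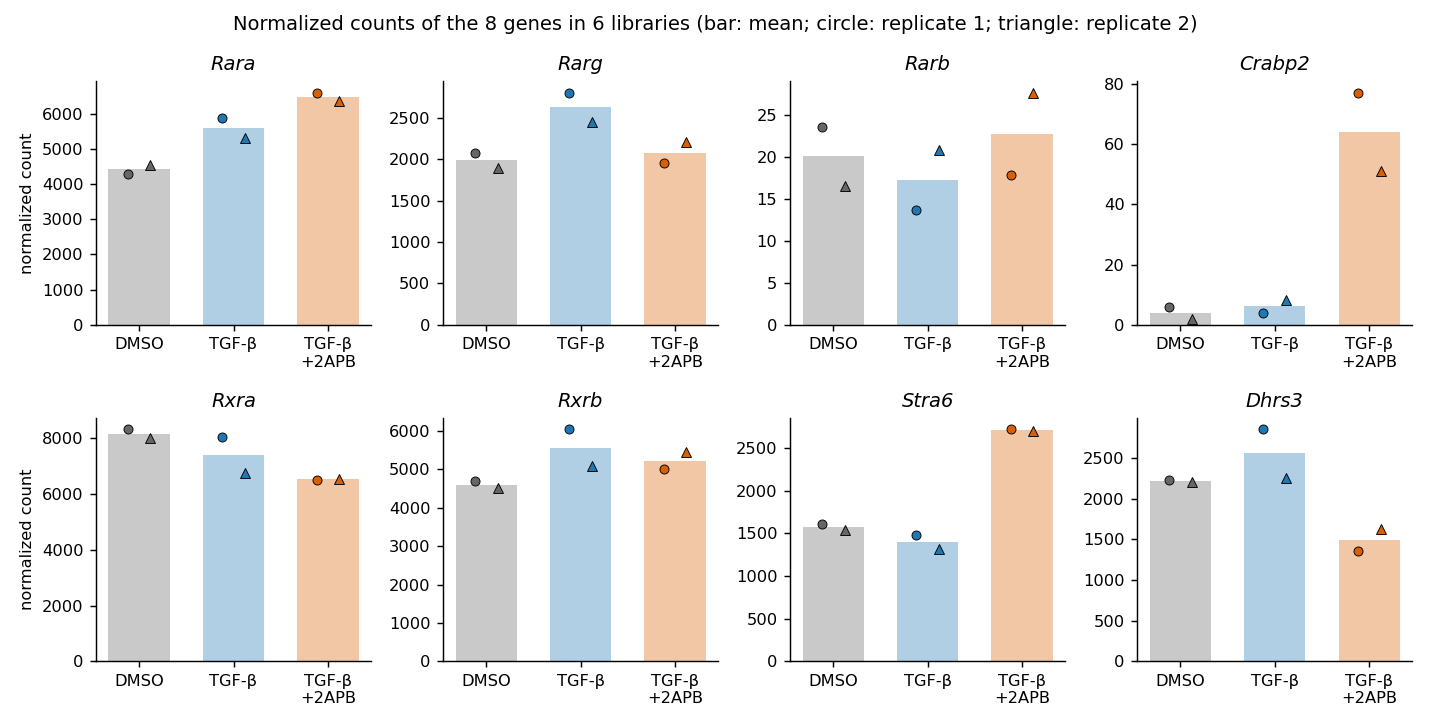
Normalized counts (linear axes from 0, a separate scale in each panel) of the 8 genes by treatment group. Bars are means of 2 libraries, circles replicate 1 and triangles replicate 2. Crabp2 and Stra6 were higher in both TGF-β+2APB libraries than in the 4 others, Dhrs3 was lower in both, and Rarb overlapped between all groups.

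Stra6 encodes the membrane receptor that takes up retinol from RBP4 (chr9:58063788-58153996, plus strand, GRCm38, the same assembly as mm10). It had 1636 and 1486 counts in the DMSO libraries, 1522 and 1264 in the TGF-β libraries and 2746 and 2734 in the TGF-β+2APB libraries. Both TGF-β+2APB libraries lay above all others, and they were nearly equal to each other. The log2 fold change with 2APB was 0.95 (SE 0.09, edgeR FDR 0.00427), or 1.94 times the TGF-β mean. Against DMSO it was 0.78 (SE 0.09, edgeR FDR 0.000916). Both calls were kept in each of the 15 alternative settings, and without TGF-β+2APB replicate 2 the change with 2APB was 0.96 (edgeR FDR 0.020) and that against DMSO 0.81 (edgeR FDR 0.00854). TGF-β alone did not move Stra6 past the threshold (-0.17, SE 0.09, edgeR FDR 0.179; 0.0224 without TGF-β replicate 1).

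Dhrs3 encodes the short-chain dehydrogenase that returns retinaldehyde to retinol, and it is itself a known retinoic acid target (chr4:144892827-144928209, plus strand). It had 2276 and 2132 counts in the DMSO libraries, 2930 and 2178 in the TGF-β libraries and 1368 and 1652 in the TGF-β+2APB libraries. The TGF-β+2APB libraries were below all 4 others. Dhrs3 fell by 0.78 on the log2 scale with 2APB (SE 0.14, edgeR FDR 0.0204), to 58.4% of the TGF-β mean. Against DMSO it fell by 0.57 (SE 0.14, edgeR FDR 0.0192), a call lost without DMSO replicate 1 or 2 (edgeR FDR 0.0935 and 0.0852) or TGF-β+2APB replicate 1 (0.116) and kept without TGF-β+2APB replicate 2 (0.0352). The call against TGF-β was lost in 5 of 15 settings, among which its FDR in edgeR was 0.105 without TGF-β+2APB replicate 1, 0.0661 and 0.0667 without DMSO replicate 1 or 2, and 0.0643 with the 4 compared libraries alone. Without TGF-β+2APB replicate 2 it was 0.0443, and the direction was the same in each setting. TGF-β alone gave 0.20 (SE 0.14, edgeR FDR 0.304; 0.0448 without TGF-β replicate 2).

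Crabp2 encodes the small cytoplasmic protein that hands retinoic acid to the receptors (chr3:87948666-87953376, plus strand). The DMSO libraries held 6 and 2 counts and the TGF-β libraries 4 and 8, which is close to the lowest value the table can hold. With TGF-β+2APB it had 78 and 52. The groups without 2APB overlapped each other, and both TGF-β+2APB libraries were above them. The fitted log2 difference was 3.38 (SE 0.60) from TGF-β and 3.96 (SE 0.63) from DMSO. Over the 12 alternatives that kept Crabp2 these ran from 2.43, with the DESeq2 prior, to 4.0, without TGF-β replicate 2, and from 2.73 to 4.88, without DMSO replicate 1. With counts halved, 65 reads in TGF-β+2APB stood against 6 in TGF-β, a ratio of 10.7. Against DMSO they stood against 4 reads, a ratio of 15.9. Crabp2 passed the filter on low counts only through the TGF-β+2APB libraries, so no test is given for it. Without TGF-β+2APB replicate 1 or 2 its mean over the others was 14.3 or 19.5 normalized counts, and it was not fitted in those settings or with halved counts. It was lower in the library with the high leukocyte markers (52) than in its partner (78), and the part of those cells in its level was not tested.

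Crabp1, which encodes the other cellular retinoic acid binding protein, had 2 counts in TGF-β replicate 2 and 0 in the 5 other libraries. Fabp5, which can carry retinoic acid to PPARδ, had 21452 and 18818 counts in the DMSO libraries, 13630 and 10428 in the TGF-β libraries and 15076 and 14392 in the TGF-β+2APB libraries. Relative to DMSO it was lower under TGF-β (-0.75, SE 0.11, edgeR FDR 0.00428) and under the combined treatment (-0.48, edgeR FDR 0.0162), while its difference between these 2 treatments was 0.27 (edgeR FDR 0.161).

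Rara encodes RARα (chr11:98927818-98974942, plus strand) and was the retinoic acid receptor with the most counts. It had 4366 and 4404 counts in the DMSO libraries, 6044 and 5124 in the TGF-β libraries and 6664 and 6452 in the TGF-β+2APB libraries. Neither treated group overlapped DMSO. The log2 fold change was 0.34 under TGF-β (SE 0.08, edgeR FDR 0.0215) and 0.55 under TGF-β+2APB (SE 0.08, edgeR FDR 0.00278), both against DMSO. Between both treated groups the difference was 0.21 (SE 0.08, edgeR FDR 0.142), which DESeq2 without its prior placed at an FDR of 0.0461 and edgeR without TGF-β replicate 1 at 0.0397. The TGF-β call was lost in 5 of 15 settings, among them with an edgeR FDR of 0.175 and 0.10 without DMSO replicate 1 or 2, and 0.0540 and 0.0528 without TGF-β+2APB replicate 1 or 2. The call of TGF-β+2APB against DMSO was kept in all 15, with 0.60 (edgeR FDR 0.0181) without TGF-β+2APB replicate 2.

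Rarg encodes RARγ (chr15:102234938-102257517, minus strand). It had 2110 and 1838 counts in the DMSO libraries, 2878 and 2364 in the TGF-β libraries and 1974 and 2236 in the TGF-β+2APB libraries. The TGF-β libraries were above the 4 others, and the DMSO and TGF-β+2APB libraries overlapped. The log2 fold change with TGF-β was 0.40 (SE 0.11, edgeR FDR 0.0297), and this call was lost without DMSO replicate 1 or 2 (edgeR FDR 0.102 and 0.187). The difference between TGF-β+2APB and TGF-β was -0.34 (SE 0.11, edgeR FDR 0.0895), which passed the threshold without TGF-β replicate 2 (edgeR FDR 0.0236). The ratio of Rara to Rarg counts within a library, chosen after the values were seen, was 2.07 and 2.40 in the DMSO libraries, 2.10 and 2.17 in the TGF-β libraries and 3.38 and 2.89 in the TGF-β+2APB libraries.

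Rarb encodes RARβ, a classical retinoic acid target through a response element at its own start (chr14:16430839-16819156, minus strand). It had 24 and 16 counts in the DMSO libraries, 14 and 20 in the TGF-β libraries and 18 and 28 in the TGF-β+2APB libraries, and all 3 groups overlapped. Its exons share 1793 bases with those of Top2b on the opposite strand. The strand setting of the counting is not given in the sources used here, so how reads in that shared stretch were counted is not known.

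The receptors bind direct repeats of a half-site, and repeats with 5 bases between the half-sites are the best known response elements. The half-site AGGTCA and its variants AGTTCA (found in both genes shown), GGGTCA (found in neither, like AGGTCA) and GGTTCA (found in Rarb) were searched on both strands as direct repeats with 1, 2 or 5 bases between them, in RefSeq promoter windows (GRCm38) from 250 bases before to 50 after each start. A spacing of 5 was found in 0.0974% of 32851 windows, a spacing of 2 in 0.268% and a spacing of 1 in 0.222%. Of the 8 members, 7 had 18 windows in all, and 1 member, Rarb, held a match. Crabp2 had no window and was not searched, and neither were Rdh10 and Bhlhe40. Among 47 other retinoid pathway genes with 58 windows, Cyp26a1 held a repeat with 5 bases between and Bco1 one with 1 base between. The matches with 5 bases between, those of Rarb (chr14:16575508-16575534, minus strand) and Cyp26a1 (chr19:37697771-37697797, plus strand), are shown. Half-sites are in capitals, with 5 flanking bases on each side, and each line reads along the gene's own strand, on which the Cyp26a1 repeat is reversed.
Rarb: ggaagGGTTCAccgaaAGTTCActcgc
Cyp26a1: aaagaTGAACTttgggTGAACTaattt
The Rarb match lies 53 to 37 bases before the RefSeq start, within the 5′ untranslated part of a longer annotated Rarb transcript. The Cyp26a1 match lies 32 to 16 bases before its start and in no annotated exon. A match is a description of the letters and not evidence of binding.

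Rxra encodes RXRα (chr2:27676440-27762957, plus strand), a dimer partner shared by many nuclear receptors. It had 8452 and 7752 counts in the DMSO libraries, 8242 and 6488 in the TGF-β libraries and 6568 and 6610 in the TGF-β+2APB libraries. TGF-β spanned from near DMSO to near TGF-β+2APB. Of its comparisons, TGF-β+2APB against DMSO passed the threshold (-0.33, SE 0.10, edgeR FDR 0.0385), and that call was lost when any one of the DMSO or TGF-β+2APB libraries was left out (edgeR FDR 0.138 to 0.193). Without TGF-β replicate 1 the difference of TGF-β from DMSO passed (edgeR FDR 0.0143), and without TGF-β replicate 2 that of TGF-β+2APB from TGF-β did (edgeR FDR 0.0125).

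Rxrb encodes RXRβ (chr17:34031812-34038399, plus strand). It had 4768 and 4368 counts in the DMSO libraries, 6198 and 4900 in the TGF-β libraries and 5052 and 5512 in the TGF-β+2APB libraries. No comparison passed the threshold. The log2 difference from DMSO was 0.27 under TGF-β (SE 0.10, edgeR FDR 0.0865) and 0.18 under TGF-β+2APB (edgeR FDR 0.197). The first was 0.15 and 0.39 without TGF-β replicate 1 or 2, and without replicate 2 it passed, with 1 TGF-β library left. It also passed with a replicate block in which the TGF-β+2APB numbers were exchanged, chosen after seeing the data (edgeR FDR 0.0488). The second was 0.19 and 0.18 without TGF-β replicate 1 or 2, and it passed in each case, with 1 TGF-β library left. It also passed with the 4 compared libraries alone (edgeR FDR 0.0322). Rxrg, the RXRγ gene, had 8 to 18 counts in each of the 6 libraries.

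**Figure D2:**
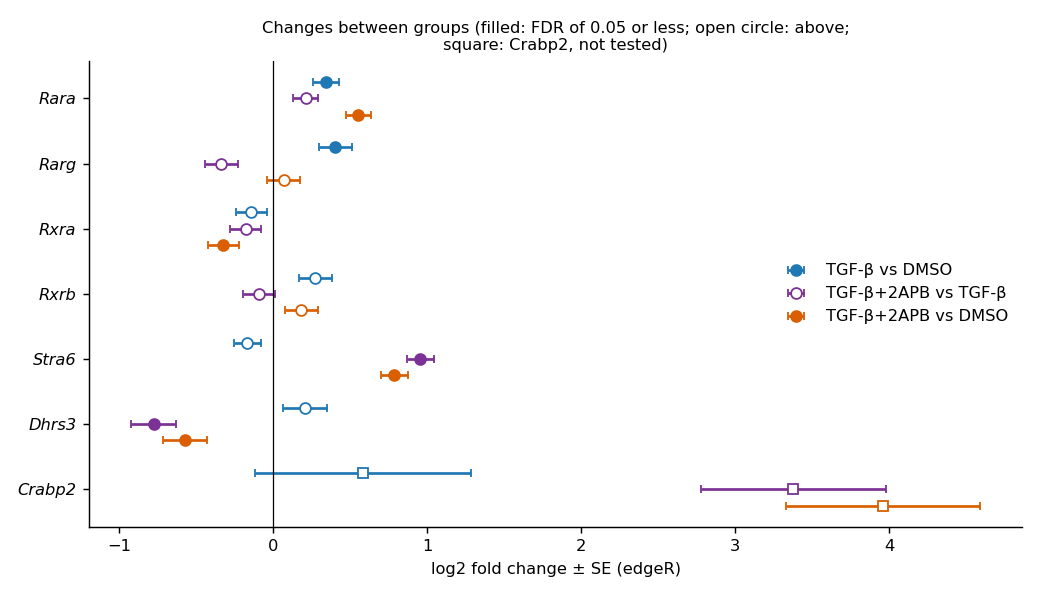
Log2 fold changes (points) with standard errors (bars) from edgeR for 7 of the 8 genes in the 3 comparisons; Rarb was not tested. Filled circles passed an FDR of 0.05, open circles did not, and open squares mark Crabp2, for which no test is given. Stra6 and Dhrs3 are the members with filled purple circles, at 0.95 and -0.78.

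Across the members, 2 of the 6 tested other than Crabp2 were called with TGF-β against DMSO, both higher, where 41.5% of all tested genes were called (21.8% higher and 19.7% lower). With 2APB added to TGF-β, 2 of the 6 were called, 1 higher and 1 lower, where 17.5% of all genes were called (6.58% higher and 10.9% lower). Under TGF-β+2APB relative to DMSO, 4 of 6 were called, 2 higher and 2 lower, where 52.8% of all genes were called (25.6% higher and 27.2% lower). With so few members, these shares do not set them apart from other genes. The median log2 fold change of these 6 was 0.24, -0.14 and 0.12 in the 3 comparisons, against -0.01, -0.00 and -0.00 over all genes. Each pair of comparisons shares a group of libraries, so they are not independent.

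Levels of the members relative to each other were set as CPM per kilobase of the longest annotated transcript. In DMSO, Rxrb was at 22.9 ± 0.61, Rxra at 21.8 ± 0.56, Rara at 17.1 ± 0.71, Dhrs3 at 12.4 ± 0.14, Rarg at 8.80 ± 0.55 and Stra6 at 6.68 ± 0.22 (SD, n = 2). Rarb was at 0.0844 ± 0.021 and Crabp2 at 0.0559 ± 0.038, and these last 2 overlapped. With TGF-β+2APB, Stra6 at 11.5 ± 0.064 had moved from the sixth to the fourth place and Dhrs3 at 8.35 ± 1.09 from the fourth to the sixth. Rarg, between them at 9.22 ± 0.79, overlapped Dhrs3, and Rara at 25.1 ± 0.63 overlapped Rxrb at 26.0 ± 1.54. Crabp2 at 0.903 ± 0.26 was the seventh of 8, after the eighth in DMSO, where it overlapped Rarb. The order depends on the transcript length used: with the median transcript length, Rarg in DMSO was at 61.4 and Rara at 23.4.

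The other genes of the pathway were taken from lists of 67 genes in 5 groups, of which 61 were in the table and 46 were tested. These lists too were chosen with earlier results of these data known. With TGF-β, 25 of 46 were called, 10 higher and 15 lower, where 41.5% of all genes were called. With 2APB added to TGF-β, 8 of 46 were called, 2 higher and 6 lower, close to the 17.5% of all genes. Relative to DMSO, TGF-β+2APB gave 30 calls, 14 higher and 16 lower, where 52.8% of all genes were called. These counts hold genes that passed the filter on low counts only through the group where they were highest. They are Aldh1a2, highest with TGF-β+2APB, and Rdh7 and Ttr, highest in DMSO. Their median log2 fold change was -0.13, 0.08 and 0.02 in these comparisons.

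Among the genes that make retinoic acid, Rdh10 was higher and Aldh1a1 lower in each treated group. Of 14 tested synthesis genes, 1 was higher and 7 were lower with TGF-β (median -0.44). Of all tested genes, 21.8% were higher and 19.7% lower. With 2APB added 1 was higher and 3 were lower (median 0.03 without Rdh7, at 0 in both groups). Of all tested genes, 6.58% were then higher and 10.9% lower. Rdh10, the main retinol dehydrogenase of the embryo, had 3238 and 2908 counts in the DMSO libraries, 9112 and 8672 in the TGF-β libraries and 23592 and 21956 in the TGF-β+2APB libraries. Rdh10 rose at each step without overlap. Its log2 fold change was 1.53 with TGF-β (SE 0.08, edgeR FDR 0.000113) and a further 1.33 with 2APB (SE 0.08, edgeR FDR 0.00234).

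Aldh1a1, a retinaldehyde dehydrogenase, fell across the same groups, from 5618 and 5054 counts in the DMSO libraries to 478 and 316 under TGF-β and 28 and 54 under TGF-β+2APB. Aldh1a1 changed by -3.76 on the log2 scale under TGF-β (SE 0.26, edgeR FDR 0.000300) and by -3.29 when 2APB was added (SE 0.31, edgeR FDR 0.00430). The other members of that family were low: Aldh1a2 had 6 to 64 counts and Aldh1a3 18 to 68 in the 6 libraries. The fitted log2 difference of Aldh1a2 between TGF-β+2APB and DMSO was 2.45 (SE 0.70). Aldh1a2 passed the filter on low counts only through the TGF-β+2APB libraries, so no test is given for it, though it stays in the counts over the lists. Aldh1a3 was called in no comparison. The higher TGF-β+2APB count of Aldh1a2, 64 against 26, was in the library with the high leukocyte markers, and without that library its mean of 15.3 normalized counts was under the filter.

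Adh7, an alcohol dehydrogenase that can oxidize retinol, had 242 and 226 counts in the DMSO libraries, 70 and 100 in the TGF-β libraries and 22 and 28 in the TGF-β+2APB libraries. Its log2 difference between TGF-β+2APB and TGF-β was -1.79 (SE 0.31, edgeR FDR 0.0176). Dhrs4 had 1992 and 1868, 1480 and 1218, and 960 and 980 counts in the same order, and fell by 0.50 with 2APB (SE 0.09, edgeR FDR 0.0210). Rdh7 had 62 counts in each DMSO library and 0 in the 4 others. It passed the filter on low counts only through the DMSO libraries, and it stays in the counts over the lists. The ratio of Rdh10 to Dhrs3 counts within a library, enzymes that work in opposite directions, was chosen after the values were seen. It was 1.42 and 1.36 in the DMSO libraries, 3.11 and 3.98 in the TGF-β libraries and 17.2 and 13.3 in the TGF-β+2APB libraries.

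**Figure D3:**
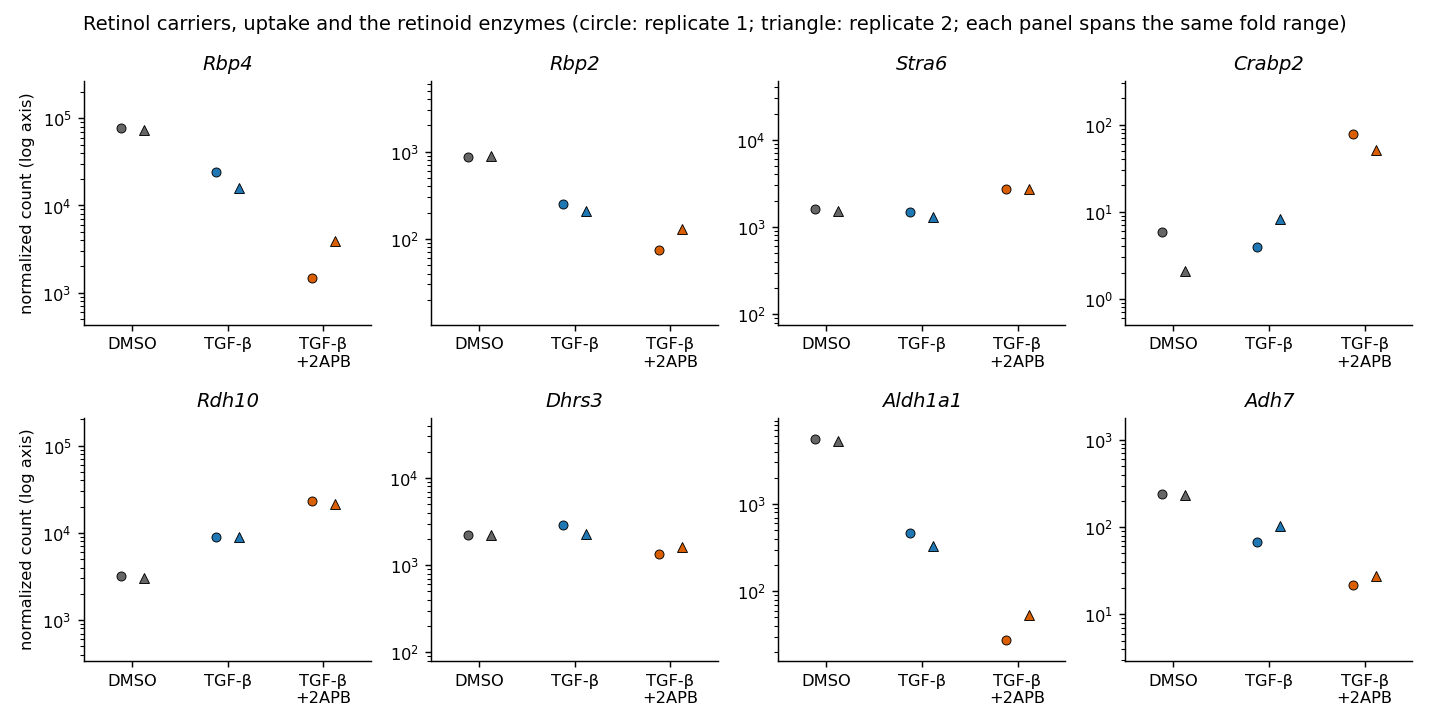
Normalized counts on log axes for carriers and uptake (Rbp4, Rbp2, Stra6), the binding protein Crabp2 and the enzymes Rdh10, Dhrs3, Aldh1a1 and Adh7, with every panel spanning the same fold range. Circles are replicate 1 and triangles replicate 2. Rdh10 was higher, and Rbp4, Rbp2, Aldh1a1 and Adh7 lower, in each successive group without overlap.

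Of 6 tested carrier genes, 4 were called with TGF-β, all lower (median -1.34), where 19.7% of all tested genes were lower. When 2APB was added, 2 were lower again (median -0.50), where 10.9% of all tested genes were lower. Rbp4, the plasma carrier of retinol, had 79686 and 71936 counts in the DMSO libraries, 24630 and 15408 in the TGF-β libraries and 1482 and 3956 in the TGF-β+2APB libraries. Rbp4 fell by 2.90 on the log2 scale with 2APB (SE 0.48, edgeR FDR 0.0157), and the library with the high leukocyte markers was the higher of its pair. Rbp2 had 890 and 860, 260 and 200, and 76 and 130 counts in the same order, and fell by 1.94 with TGF-β (SE 0.27, edgeR FDR 0.00293) and by 1.18 with 2APB (SE 0.27, edgeR FDR 0.0370). Ttr, which binds RBP4 in plasma, had 17502 and 14758 counts in DMSO and 4 to 28 in the 4 other libraries (-9.97 with TGF-β, SE 0.47). Ttr passed the filter on low counts only through the DMSO libraries, so no test is given for it, though it stays in the counts over the lists.

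Of the 3 enzymes that break retinoic acid down, Cyp26b1 was tested, though it passed the filter on low counts only through the TGF-β+2APB libraries. It had 0 and 12 counts in the DMSO libraries, 16 and 18 in the TGF-β libraries and 44 and 42 in the TGF-β+2APB libraries, and no comparison passed the threshold (TGF-β+2APB against DMSO, edgeR FDR 0.0772). Cyp26a1, a strongly retinoic acid-inducible gene, had 2 to 20 counts in the 6 libraries, and the groups overlapped.

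Of 11 receptor partners and coregulators tested, 4 were called with TGF-β, 1 higher and 3 lower (median -0.08), where 41.5% of all genes were called. With 2APB added 1 was called, lower (median 0.00), where 17.5% of all genes were called. These counts do not set the list apart from other genes. Nrip1, a corepressor of nuclear receptors, had 2142 and 2006 counts in the DMSO libraries, 4836 and 6168 in the TGF-β libraries and 6318 and 5746 in the TGF-β+2APB libraries, a rise of 1.41 with TGF-β (SE 0.15, edgeR FDR 0.00134). Ncoa1, a coactivator, and Tbl1x, a corepressor subunit, fell by 0.43 and 0.41 with TGF-β (edgeR FDR 0.00486 and 0.00512). The gene lower with 2APB was the coactivator Ncoa3, which had 5338 and 4682 counts in the TGF-β libraries against 3984 and 4166 in the TGF-β+2APB libraries (-0.32, SE 0.07, edgeR FDR 0.0368).

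Of 14 tested genes known as retinoic acid targets in other cells, 8 were higher and 1 lower with TGF-β (median 0.61), where 21.8% of all genes were higher and 19.7% lower, and 10 were higher and 1 lower under TGF-β+2APB against DMSO (median 0.90), where 25.6% were higher and 27.2% lower. Rarb, Cyp26a1 and Dhrs3, also retinoic acid targets, are not in this list. Rarb and Cyp26a1 overlapped between all groups. Dhrs3 was not called with TGF-β (edgeR FDR 0.304) and was called lower under TGF-β+2APB against DMSO. With 2APB added to TGF-β, 1 of 14 was called (median 0.20), where 17.5% of all genes were. That gene was Bhlhe40, a transcriptional repressor that responds to many stimuli, with 5988 and 5380 counts in the DMSO libraries, 17010 and 14538 in the TGF-β libraries and 35754 and 29864 in the TGF-β+2APB libraries (1.03 with 2APB, SE 0.11, edgeR FDR 0.00556). Rarres1 had 4 and 0 counts in DMSO and 168 to 194 in the 4 other libraries (6.42 with TGF-β, SE 0.75, edgeR FDR 0.00168). Hoxa4 had 12 and 14 counts in the DMSO libraries, 50 and 26 in the TGF-β libraries and 50 and 44 in the TGF-β+2APB libraries (1.52 with TGF-β, SE 0.42, edgeR FDR 0.0340). Tgm2, a transglutaminase, was the target called lower, with 78930 and 72524 counts in the DMSO libraries, 47644 and 33566 in the TGF-β libraries and 35910 and 36012 in the TGF-β+2APB libraries (-0.91 with TGF-β, SE 0.14, edgeR FDR 0.00408).

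**Figure D4:**
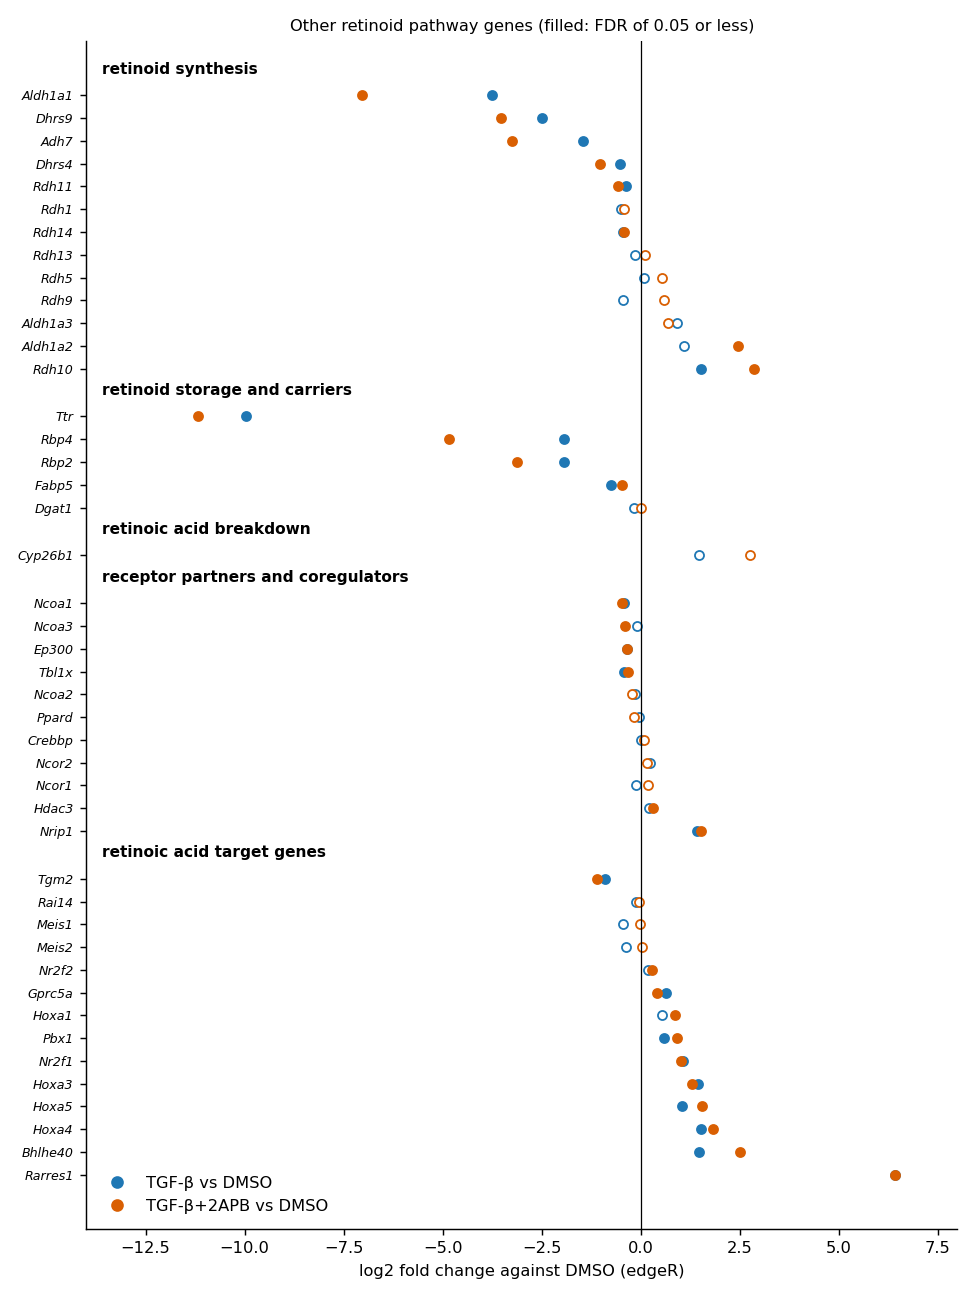
Log2 fold changes against DMSO for 44 tested pathway genes by group, with TGF-β in blue and TGF-β+2APB in orange; filled points passed an FDR of 0.05 in edgeR. Rdh7, at 0 in all treated libraries, is left out. Aldh1a2 and Ttr passed the filter on low counts only through the group where they were highest, so their filled points are a description. The synthesis and carrier genes reach far to the left, with Ttr at -9.97 and Aldh1a1 at -3.76 with TGF-β, while Rarres1 lies farthest to the right at 6.42 with TGF-β.

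The 5 genes whose log2 CPM followed Crabp2 most closely over the 6 libraries were Rpl4 (Pearson r = 0.994), Il6ra (0.992), Pgm1 (0.99), Serp1 (0.988) and Rexo4 (0.988). Il6ra, a cytokine receptor subunit, had 434 and 312 counts in the DMSO libraries, 380 and 436 in the TGF-β libraries and 808 and 666 in the TGF-β+2APB libraries. The likeness is one of shape and not of size, since Rpl4, a ribosomal protein gene, differed by 0.22 on the log2 scale between TGF-β+2APB and TGF-β. Of 13352 genes compared, 159 had an r of 0.95 or more, with the libraries of 1 group shared by all of them.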

How the data were processed

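The authors sequenced single-end reads of 6 libraries, checked them with FastQC 0.11.2, aligned them with TopHat2 2.0.13 and counted them per gene with featureCounts. The deposited values are these raw counts. The submitters' processing notes give mm10 and the methods hg19; the symbols are mouse symbols. The gene annotation, strand setting and treatment of multi-mapped reads are not given in the sources used here. The methods and results also differ on when 2APB was added. None of the values was odd. The 25 names a spreadsheet had turned into dates stayed in the fits and are not named.

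Counts were analysed with edgeR 4.0.16 in R 4.3.3. Libraries were scaled by TMM, genes averaging 20 or more normalized counts were kept, and 1 quasi-likelihood model held the 3 groups and no covariates (the script was tested on simulated data). Each SE was obtained by dividing the log2 value by the root of its F statistic. DESeq2 1.42.0, other scalings, no filter, an FDR of 0.01, the compared libraries alone, a replicate block and leaving out each library were alternatives. Positions and lengths came from GENCODE's GRCm38 annotation by symbol, and promoters from RefSeq. The members and lists were chosen with earlier results of these data known. Genes named outside the members are those of the lists called with 2APB, up to 2 per list and direction with the largest called change with TGF-β, a few retinoid genes named whatever their values, cell type markers, and the 5 most like Crabp2. Results for 1 gene of the lists are not reported here, though it stays in the counts over the lists.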

Additional observations from a re-analysis of the deposited data

How the results depend on the processing

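Of the calls on single members, those of Stra6 with 2APB and of Rara with TGF-β+2APB against DMSO were kept in all 15 alternatives, and Dhrs3 kept its direction in all of them. The number of members called with TGF-β against DMSO was 2, and it was 1 with the 4 compared libraries alone, 1 with the replicate block, 0 at an FDR of 0.01 and 0 to 4 when a library was left out. For 2APB added to TGF-β it was 2, and it was 1 with the 4 libraries alone, 1 with the replicate block, 1 at an FDR of 0.01 and 1 to 4 when a library was left out. For TGF-β+2APB against DMSO it was 4, and it was 2 at an FDR of 0.01 and 2 to 5 when a library was left out. The number of pathway genes called with TGF-β was 25, against 14 at an FDR of 0.01 and 9 to 28 when a library was left out. With 2APB added to TGF-β it was 8, against 4 with the 4 libraries alone, 5 with the replicate block, 3 at an FDR of 0.01 and 3 to 18 when a library was left out. With TGF-β+2APB against DMSO it was 30, and 17 to 34 when a library was left out. Leaving out a library leaves 1 library in its group, which is then assumed to vary like the others.

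The 3 values that changed sign were not called, or for Crabp2 no test is given. When a library was left out, Crabp2 with TGF-β ran from -0.039 (without TGF-β replicate 2) to 1.499, Rarg with TGF-β+2APB against DMSO from -0.0018 (without TGF-β+2APB replicate 2) to 0.15, and Rxrb with 2APB added to TGF-β from -0.21 to 0.039 (without TGF-β replicate 1). Whether the replicate numbers pair the libraries is not known. The replicate differences correlated at 0.16 for DMSO and TGF-β, -0.48 for DMSO and TGF-β+2APB and -0.25 for TGF-β and TGF-β+2APB. With 1 difference per group, these values cannot settle it. A replicate block took Dhrs3 with 2APB to an edgeR FDR of 0.0554, Rarg with TGF-β to 0.0587 and Rxra with TGF-β+2APB against DMSO to 0.0512. With the TGF-β+2APB numbers exchanged, a pairing chosen after seeing the data, 3, 3 and 4 members were called in the 3 comparisons. Halved counts, also chosen after seeing the data, called 2, 2 and 4 members. Counts as low as those of Crabp2 without 2APB, Rarb and Cyp26a1 limit what could be detected for these genes.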
